A study of Capra hircus with 6 samples.

Results

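A group of transcripts that holds many genes of skeletal muscle, CKM and MYL1 among them, was followed across the libraries of fetal goat skin. The group was defined by its values, as the mRNA transcripts with at least 5 FPKM in white skin replicate 4, a falling order from white skin replicate 4 to white skin replicate 5 to dark skin replicate 3, at least 10 times more in white skin replicate 4 than in the highest of dark skin replicates 1 and 2 and white skin replicate 6, and more in dark skin replicate 3 than in any of these last libraries. In all, 93 of 27947 mRNA transcripts met this rule. FPKM are fragments per length of transcript and per size of the library, so levels can be compared between genes per length. The rule used all 6 libraries, and everything said about the order of the libraries in these transcripts is therefore a description and not a test.

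The libraries were made from the skin of goat (Capra hircus) fetuses at day 100 of gestation. Those labelled Hyperpigmented came from dark skin of the Youzhou dark-skin goat (replicates 1, 2 and 3), and those labelled Normal came from white skin of the Yudong white goat (replicates 4, 5 and 6). The labels name no treatment, and coat color is generally white in both. The study collected dorsal and ventral skin from each fetus, but the labels do not say which site a library holds, how deep the skin was cut or in which batch it was sequenced. The deposited tables hold no counts, so the number of reads behind a value is unknown.

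Skeletal muscle is built of fibres filled with sarcomeres, in which thick filaments of myosin slide along thin filaments of actin anchored in Z-discs. Contraction is switched on by calcium released from the sarcoplasmic reticulum and is paid for by creatine kinase and by the breakdown of glycogen. In the trunk skin of many mammals a thin sheet of skeletal muscle, the cutaneous muscle, lies under the dermis, and smooth muscle is found separately in vessels and in the muscles that raise the hairs.

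Gene symbols were found for 44 of the 93 transcripts, from 41 genes. Of these, 30 transcripts from 28 genes stood in the lists of muscle genes drawn up for this comparison, and 14 transcripts from 13 genes stood in none. The other 49 transcripts had no symbol and are given by accession. Both defining markers belonged to the group. CKM (XM_005692636.1), the creatine kinase of muscle, had an FPKM of 226 in white skin replicate 4, 65.8 in white skin replicate 5, 20.3 in dark skin replicate 3, 2.71 in dark skin replicate 1, 3.02 in dark skin replicate 2 and 2.56 in white skin replicate 6. MYL1 (XM_005676485.1), the essential myosin light chain of fast fibres, was at 273, 103, 28.8, 4.91, 4.33 and 2.55 FPKM in the same order of libraries. That order, with white skin replicate 4 first and white skin replicate 6 last, is kept for all values below. The high and the low libraries came from both breeds. The ratio between white skin replicates 4 and 6 was 88.5 for CKM and 107 for MYL1. In bulk skin, fewer muscle fibres and less of their RNA per fibre cannot be told apart.

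Summed over the 93 transcripts, the level was 7002 FPKM in white skin replicate 4, 2240 in white skin replicate 5, 724 in dark skin replicate 3, 148 in dark skin replicate 1, 166 in dark skin replicate 2 and 118 in white skin replicate 6. The group thus held 1.35% of all mRNA FPKM in white skin replicate 4 and 0.0230% in white skin replicate 6. The total over all mRNA transcripts ran from 506548 to 585344 FPKM in the 6 libraries. The transcript with the highest level, XM_005697701.1, had no symbol and was at 1438, 520, 137, 17.7, 18.5 and 12.1 FPKM, which was 20.5% of the sum over the group in white skin replicate 4. Among the 27 transcripts with at least 50 FPKM in white skin replicate 4, 10 had a symbol.

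Among thick filament genes, MYL2 (XM_005691447.1), the regulatory light chain of slow fibres and of the heart ventricle, had an FPKM of 327, 57, 21.2, 3.19, 7.02 and 0.754. Its fall from white skin replicate 4 to white skin replicate 5 was 5.75 times, steeper than that of CKM (3.44 times) and MYL1 (2.65 times). MYBPC1 (XM_005680517.1), a myosin-binding protein of the thick filament, was at 42.8, 17.3, 3.53, 0.0459, 0.360 and 0.70 FPKM. A further MYL1 transcript (XM_005676482.1) followed the same order at a lower level, from 31.2 FPKM in white skin replicate 4 to 0 in white skin replicate 6. Of the 5 matched thin filament genes, 1 was in the group, LMOD3 (XM_005695749.1), which helps to form actin filaments. It was at 10.8, 3.44, 1.31, 0.819, 0.841 and 0.524 FPKM.

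The Z-disc and sarcomere assembly list gave the most genes, with 11 genes and 12 transcripts. KLHL41 (XM_005676004.1), a Kelch protein needed for sarcomere assembly, was the highest of them, at 104, 55.8, 22.3, 3.46, 4.76 and 2.46 FPKM. CSRP3 (XM_005699520.1), the muscle LIM protein, was at 35.3, 11.8, 5.32, 0.692, 0.524 and 4e-05 FPKM. In both genes the 3 libraries at the low end lay far below dark skin replicate 3. The others ranged in white skin replicate 4 from 30.1 FPKM for PDLIM3 (XM_005698725.1), a PDZ and LIM protein that binds alpha-actinin, to 5.33 FPKM for ANKRD1 (XM_005698203.1), an ankyrin repeat protein bound to titin. They included MYOT, MYOZ1 with 2 transcripts, UNC45B, CAPN3, NRAP, XIRP2 and TRIM54, which encode, respectively, the Z-disc proteins myotilin and myozenin, a myosin chaperone, the muscle calpain, actin-binding proteins of the forming and mature sarcomere, and a ubiquitin ligase of the sarcomere.

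For calcium handling, SLN (XM_005689416.1), the small inhibitor of the sarcoplasmic calcium pump, had an FPKM of 196, 63.2, 18.0, 2.52, 3.01 and 1.77. CASQ1 (XM_005677230.1), the calcium store protein of fast fibres, was at 65.5, 18.6, 4.09, 1.39, 1.89 and 1.58 FPKM. CASQ2 (XM_005677826.1), its counterpart in slow fibres and heart, was at 26.5, 13.2, 3.65, 0.593, 0.824 and 0.506 FPKM. CASQ1 dropped more between white skin replicates 4 and 5 (3.52 times) than CASQ2 did (2.01 times), whereas MYL2 dropped more than MYL1, so fast and slow genes were not ordered in one way. The steps of the MYOZ1 transcripts, which belong to a fast fibre gene, were 5.21 and 2.18 times.

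Energy metabolism was represented by 6 genes. Besides CKM, ENO3 (XM_005693455.1), the muscle enolase of glycolysis, was at 110, 40.3, 13.5, 4.63, 5.56 and 3.53 FPKM. PGAM2 (XM_005695487.1), the muscle phosphoglycerate mutase, was at 69.9, 20.6, 8.78, 6.02, 5.31 and 5.29 FPKM. In PGAM2 the low libraries lay closer to dark skin replicate 3 (1.46 times lower) than in CKM (6.74 times lower). PYGM, the glycogen phosphorylase of muscle, PPP1R3A, which brings a phosphatase to glycogen, and AMPD1, the muscle AMP deaminase, reached 21.8, 13.0 and 8.06 FPKM in white skin replicate 4. At the sarcolemma, CAV3 (XM_005695646.1), the caveolin of muscle, was at 33.5, 8.39, 3.81, 0.779, 0.436 and 0.669 FPKM, and ITGB1BP2 (melusin) reached 23.3 FPKM in white skin replicate 4.

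Of the 14 transcripts outside the lists, LOC102181181 was the highest, with 66.7 FPKM in white skin replicate 4, and its role is not known from the sources used here. SMPX (XM_005701002.1), a small protein of striated muscle, was at 58.3, 21.5, 5.03, 1.25, 1.24 and 0.422 FPKM. APOBEC2 (XM_005696288.1), a deaminase family member found in muscle, was at 46.8, 11.2, 5.86, 3.98, 3.92 and 4.29 FPKM. SMPX fell to a very low level in the last 3 libraries, whereas APOBEC2 kept about the same level in these 3. PKIA, an inhibitor of protein kinase A, and TMEM182, TXLNB, ASB5 and PRR32 reached between 6.12 and 19.3 FPKM in white skin replicate 4. Others were ATP6V1C2 and single transcripts of SLC25A3, FXR1 and PDE4DIP, described below.

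**Figure D1:**
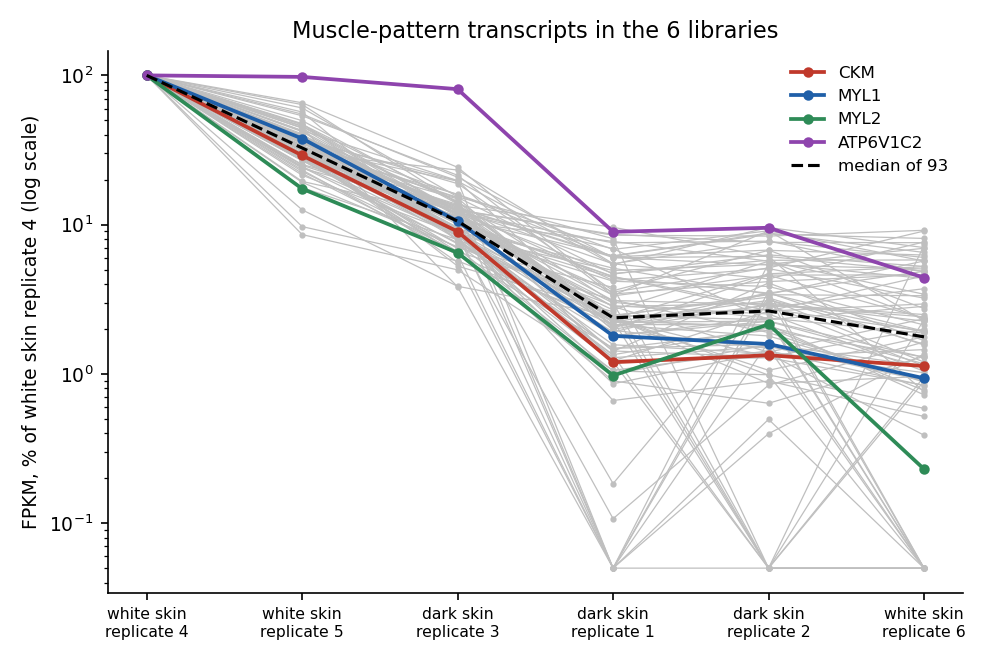
Level of each of the 93 transcripts in every library as a percentage of its FPKM in white skin replicate 4, on a log axis, with values under 0.05% drawn at 0.05% (gray lines are single transcripts, the dashed line is the median). The median falls to 32.6% in white skin replicate 5 and 10.6% in dark skin replicate 3 and lies between 1.77% and 2.64% in the other 3 libraries, and ATP6V1C2 stands apart.

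How closely the transcripts kept to one shape was read from the steps between libraries. Relative to white skin replicate 4, the median transcript was at 32.6% in white skin replicate 5, 10.6% in dark skin replicate 3, 2.38% in dark skin replicate 1, 2.64% in dark skin replicate 2 and 1.77% in white skin replicate 6. The step from white skin replicate 4 to 5 had a median of 3.06 times, and the central 50% of transcripts lay between 2.57 and 3.53 times. The next step, to dark skin replicate 3, had a median of 3.20 times, with the central 50% between 2.46 and 3.78 times. Each of these steps was between 2 and 5 times in most transcripts, in 79 of 93 for the former and in 76 of 93 for the latter. The rule fixed the direction of these steps but not their size.

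The step from dark skin replicate 3 down to the highest of the last 3 libraries was less uniform. Its median was 3.49 times, and it was at most 2 times in 20 transcripts. The lowest step was 1.14 times, in XM_005696441.1, and the highest among transcripts with a symbol was 18.1 times, in TRIM54. In 54 transcripts all 3 low libraries were under 1 FPKM, and in 18 at least 1 of them was listed under 0.01 FPKM. The last step of such transcripts therefore rests on very low estimates. The 27 transcripts with at least 50 FPKM in white skin replicate 4 were a median of 46.6 times higher there than in the highest of the 3 low libraries, and the 66 others 28.4 times.

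The order of the 3 low libraries among themselves was not part of the rule. White skin replicate 6 was the lowest of them in 50 of 93 transcripts (53.8%), against 33.8% of the 23090 mRNA transcripts that averaged 0.1 FPKM or more. Dark skin replicate 2 was the highest of them in 45 transcripts (48.4%, against 31.3% of all). The most frequent full order, dark skin replicate 2 above dark skin replicate 1 above white skin replicate 6, was found in 30 transcripts, CKM among them. MYL1 (XM_005676485.1) was among the 20 in which dark skin replicate 1 lay above dark skin replicate 2 and white skin replicate 6 was again last. In 3 transcripts a pair of these libraries was listed at the same value, 0, and these were counted in no full order. Dark skin replicates 1 and 2 differed by no more than 2 times in 66 transcripts, so that their order is not firm. These transcripts come from the same 6 libraries and are not independent of each other.

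Over the 6 libraries, the Pearson correlation with CKM on the log2(FPKM + 0.1) scale had a median of 0.979 over the other 92 transcripts and was at least 0.95 in 77 of them. The rule selects for such values, so the number only describes how far single transcripts departed from CKM. The lowest were MEF2C (XM_005683422.1, r = 0.837), a transcription factor of muscle and vessels, and XM_005697480.1 (r = 0.886). MEF2C was at 16.3, 9.87, 2.51, 1.31, 0.00703 and 1.19 FPKM, and its very low estimate in dark skin replicate 2 set it apart.

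**Figure D2:**
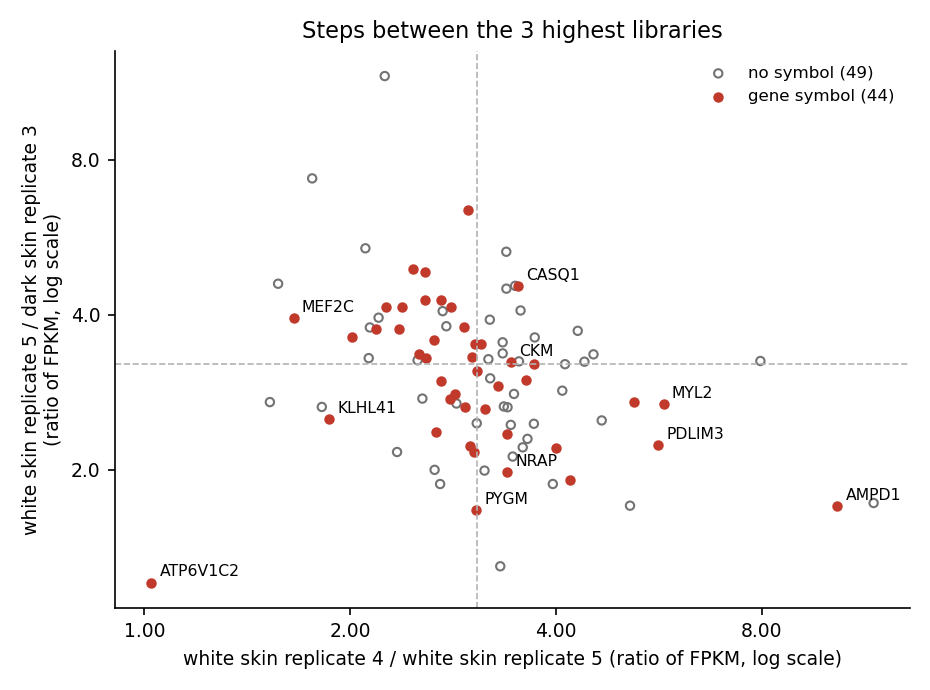
Ratio of white skin replicate 4 to 5 (horizontal axis) and of white skin replicate 5 to dark skin replicate 3 (vertical axis) for each transcript of the group, both as ratios of FPKM on log axes, with dashed lines at the medians of 3.06 and 3.20. Most transcripts gather around the medians, AMPD1 lies far to the right (10.3 and 1.70) and ATP6V1C2 in the lower left corner (1.02 and 1.21).

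A few transcripts departed from the common shape. XM_005695877.1, without a symbol, was at 228 FPKM in white skin replicate 4 and 19.6 in white skin replicate 5, a step of 11.7 times. AMPD1 (XM_005677842.1) had a similar step of 10.3 times, from 8.06 to 0.781 FPKM. Another AMPD1 transcript (XM_005677843.1), which was not in the group, took a larger share in white skin replicate 5 (1.42 FPKM) than this one. The former made up 80.4% of their sum in white skin replicate 4 and 35.6% in white skin replicate 5. The largest next step, 11.6 times, was found in XM_005685464.1, with 3.22 FPKM in white skin replicate 5 and 0.277 in dark skin replicate 3.

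ATP6V1C2 (XM_005687004.1), a subunit of the vacuolar proton pump, met the rule with nearly equal values in the 3 high libraries. Its FPKM was 25.1, 24.5, 20.3, 2.25, 2.39 and 1.11. Dark skin replicate 3 stood at 80.9% of white skin replicate 4, whereas the next highest value in the group was 24.2%. The other matched ATP6V1C2 transcript (XM_005687003.1) was even highest in dark skin replicate 3, at 8.99 FPKM against 7.40 in white skin replicate 4.

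In 13 of the genes with a symbol, other matched transcripts existed that did not belong to the group, 21 in all. In several broadly expressed genes some transcripts followed the muscle genes and others did not. SLC25A3, the phosphate carrier of mitochondria, had a transcript in the group (XM_005680477.1) at 25.1, 8.79, 3.14, 1.37, 1.09 and 1.92 FPKM. Its other transcript (XM_005680479.1) was at 124, 140, 168, 166, 148 and 158 FPKM, with the lowest value in white skin replicate 4. The former made up 16.8% of the summed SLC25A3 level in white skin replicate 4 and 0.730% in dark skin replicate 2, while the sum itself ran from 149 to 171 FPKM over the libraries.

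FXR1, an RNA-binding protein with muscle isoforms, showed the same division. Its transcript in the group (XM_005675222.1) was at 7.93, 3.09, 0.722, 0.350, 0.276 and 0.386 FPKM. The most abundant FXR1 transcript (XM_005675225.1) was again lowest in white skin replicate 4, at 19.3 FPKM, against 21.4 FPKM in white skin replicate 6 and 29.9 FPKM in dark skin replicate 1. In MEF2C the group's transcript made up 44.6% of the gene's sum in white skin replicate 4 and 7.90% in dark skin replicate 3. In PDE4DIP (myomegalin, a protein of the centrosome, the Golgi and the sarcomere) 2 transcripts of the group together made up 46.0% in white skin replicate 4 and 1.93% in dark skin replicate 1, beside a transcript (XM_005677779.1) at 15.2 to 19.8 FPKM in all libraries. The division of reads between transcripts of 1 gene is an estimate of Cuffdiff, and no read counts per exon were used here.

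**Figure D3:**
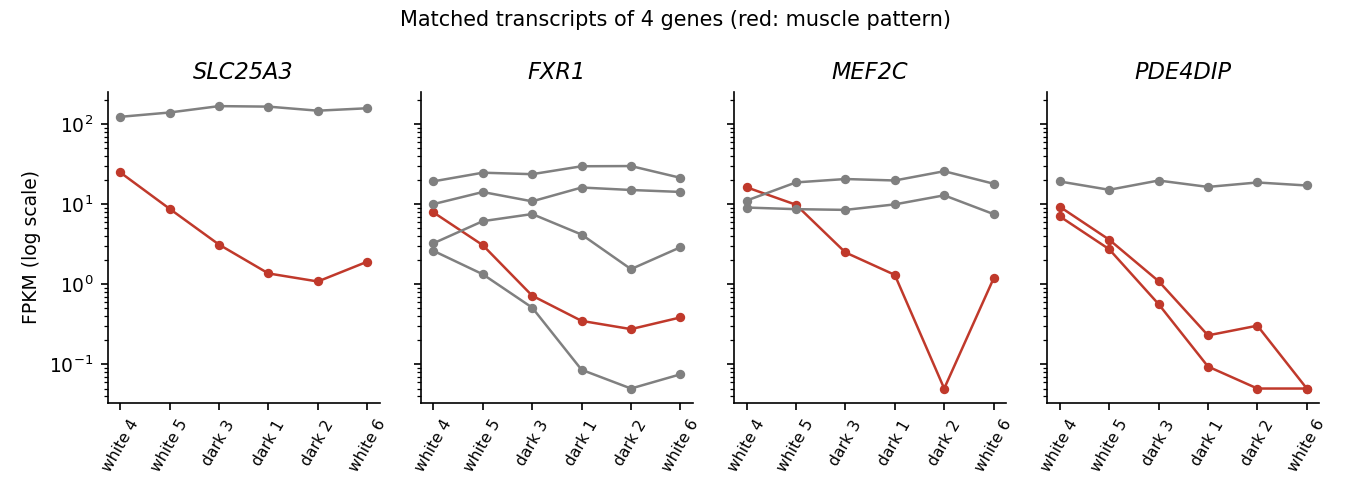
FPKM of matched transcripts of SLC25A3, FXR1, MEF2C and PDE4DIP that reached 1 FPKM in any library, on a log axis with values under 0.05 drawn at 0.05 (red for transcripts of the muscle group, gray for the others, lines join the libraries of 1 transcript). The red lines fall from white skin replicate 4 to the low libraries, and in each gene the most abundant transcript of the low libraries is a gray one.

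The muscle lists were also read the other way, from genes to values. Of 174 listed genes, 68 had a matched transcript, with 95 transcripts. Of the 89 that averaged 0.1 FPKM or more, 71 (79.8%) were highest in white skin replicate 4, against 20.3% of all mRNA transcripts past this filter. The full falling order of the rule, without its floor and its 10-fold condition, was kept by 45 of the 89 (50.6%), against 1.99% of all. The median log2 ratio of white skin replicate 4 to the highest of the 3 low libraries was 2.50, against -0.19 over all. The lists hold the members that the rule selected, so these figures describe the lists and test nothing.

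By role, members were found in 3 of 5 matched thick filament and M-band genes, 11 of 19 Z-disc and assembly genes, 6 of 12 genes of energy metabolism, 3 of 11 of calcium handling and excitation, 3 of 8 of the sarcolemma, 1 of 5 of the thin filament, 1 of 6 myogenic regulators and 0 of 2 genes of the neuromuscular junction. Many well-known genes of the sarcomere, among them skeletal actin and all listed myosin heavy chains, had no transcript matched to their symbol. They could not be followed by name, and whether any are among the 49 members without a symbol is not known here. The same holds for the genes that mark fetal muscle, of which 0 of 6 were matched.

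Of the 65 listed transcripts outside the group, 15 kept the full order but missed the floor, the 10-fold condition or both. CHRNA1 (XM_005675941.1), a subunit of the muscle acetylcholine receptor, missed the floor narrowly, at 4.99, 1.21, 0.570, 0.113, 0.0686 and 0.0765 FPKM. MYPN (myopalladin, a Z-disc protein) followed at 4.86 FPKM in white skin replicate 4. Just inside the floor were XM_005679762.1 (5.20 FPKM), ANKRD1 (5.33 FPKM) and TRIM54 (5.34 FPKM). At the 10-fold condition, PYGM (10.5 times) and ATP6V1C2 (10.5 times) lay just inside and DTNA, a protein of the dystrophin complex, just outside (8.40 times).

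Other muscle genes had sizeable levels in the low libraries. ALDOA (XM_005697674.1), the aldolase of muscle and many other cells, was at 307, 168, 167, 63.4, 94.3 and 124 FPKM. CRYAB (XM_005689436.1), a small heat shock protein of muscle, lens and other tissues, was at 46.4, 27.3, 23.7, 6.96, 9.36 and 8.19 FPKM. Both kept the falling order with ratios under 10 times. Most of the 65 listed transcripts outside the group did not keep it, among them some with sizeable levels. HSPB8 was highest in dark skin replicate 3 (63.3 FPKM, against 55.5 FPKM in white skin replicate 4). SGCD was at 21.4 to 29.1 FPKM and FBXO32 at 14.3 to 27.1 FPKM, each highest in dark skin replicate 2. FBXO32 was lowest in white skin replicate 4. MB (XM_005680603.1), the oxygen store myoglobin, was at 13.4, 3.81, 1.94, 1.15, 2.32 and 0.813 FPKM, and missed both the 10-fold condition (5.78 times) and the order, since dark skin replicate 2 lay above dark skin replicate 3. Of the myogenic regulators, PAX3 (at most 0.906 FPKM) and SIX4 (at most 2.42 FPKM) were low everywhere.

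TPM3 (XM_005677462.1), a tropomyosin with a slow muscle isoform, was at 41.9 FPKM in white skin replicate 4, 0.0250 in white skin replicate 5, 0.892 in dark skin replicate 3 and at most 0.399 in the others. It was thus above 1 FPKM in white skin replicate 4 alone, and it missed the rule since white skin replicate 5 did not exceed dark skin replicate 3. Without a symbol, XM_005685690.1 was at 306, 123, 0.00673, 6.70, 6.67 and 4.91 FPKM, and only its value in dark skin replicate 3 broke the order.

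**Figure D4:**
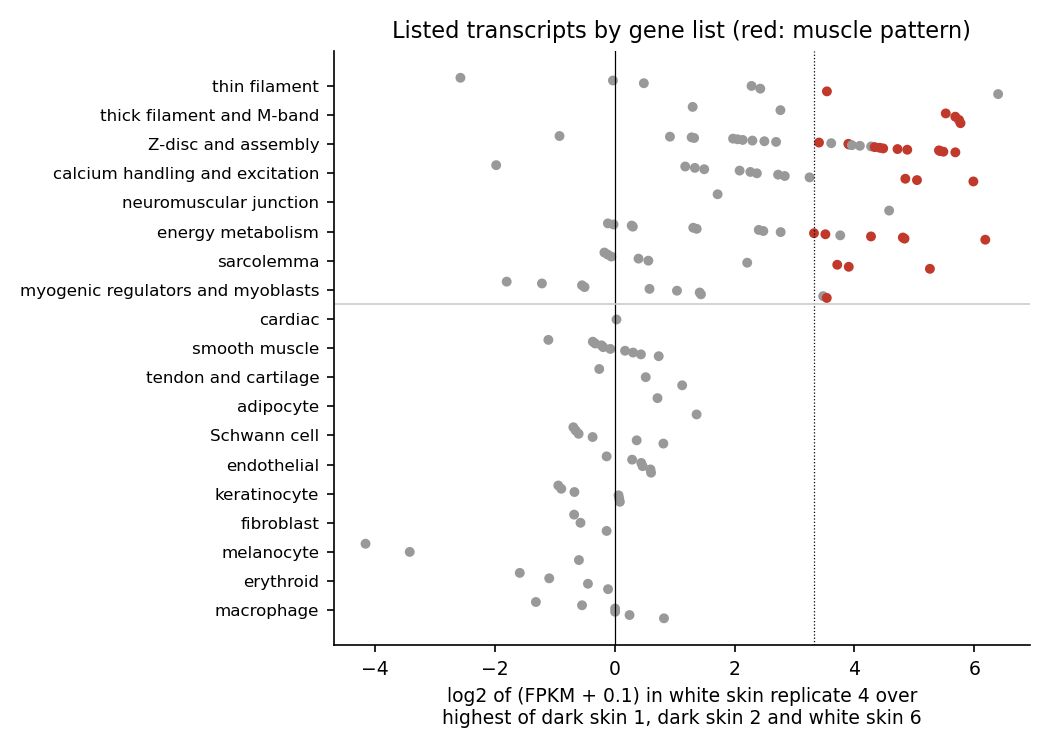
Log2 ratio of FPKM + 0.1 in white skin replicate 4 to the highest of dark skin replicates 1 and 2 and white skin replicate 6, for each listed transcript averaging 0.1 FPKM or more (rows are gene lists, muscle above and other cell types below the gray line, red for the muscle group, dotted line at 10 times). Red points lie in the muscle lists only, and no transcript of the other cell types reaches the dotted line.

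No marker of another cell type on the lists belonged to the group. Of the listed cardiac genes, 2 of 12 were matched, and both were highest in white skin replicate 4. MYL7, a light chain of the heart atrium, was at most 0.0874 FPKM and listed at 0 in 4 libraries. HAND2 (XM_005683520.1), a transcription factor of the heart and other tissues, was at 4.42, 1.72, 0.531, 3.66, 1.82 and 4.34 FPKM, so that white skin replicate 6 came next to white skin replicate 4. The summed smooth muscle list was highest in dark skin replicate 3, and 0 of its 10 matched transcripts were highest in white skin replicate 4. ACTA2 (XM_005698192.1), the actin of smooth muscle, was at 232, 236, 448, 81.5, 187 and 151 FPKM. The summed smooth muscle list ran from 234 to 891 FPKM in dark skin and from 318 to 499 FPKM in white skin.

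Some other markers did move with white skin replicate 4. Of the adipocyte list 2 of 11 genes were matched, with 3 transcripts, of which 1 of CIDEC was listed at 0 in all libraries. ADIPOQ (adiponectin, XM_005675149.1) was at 65.4, 12.3, 5.45, 8.89, 3.82 and 25.3 FPKM. Its highest value was in white skin replicate 4 too, but white skin replicate 6 came next. The summed adipocyte list was at 4.51 to 12.2 FPKM in dark skin and 15.2 to 79.0 FPKM in white skin, and its part in the muscle group was not tested. Endothelial markers were summed at 121 FPKM in white skin replicate 4 and 63.7 to 89.6 FPKM elsewhere. Of the tendon and cartilage list 3 of 10 genes were matched, and their sum was 108 to 117 FPKM in dark skin and 118 to 172 FPKM in white skin. Of these, TNMD (XM_005700117.1), a tendon gene, kept the falling order at 20.9, 20.6, 19.7, 7.39, 9.5 and 6.90 FPKM. FMOD and COL11A1, which encode matrix proteins of tendon and cartilage, did not keep it. Summed levels of the keratinocyte list (545 to 958 FPKM), the fibroblast list (2011 to 2553 FPKM) and the macrophage list (39.3 to 53.1 FPKM) varied far less than CKM did. In the fibroblast list, the matched COL1A2 and COL3A1 transcripts were listed at 0 in all libraries. Its sum thus came from LUM, DCN and PDGFRA. The melanocyte list was lowest in white skin replicate 4 (10.6 FPKM, against up to 40.4 FPKM), and the erythroid list ran from 1.98 to 15.5 FPKM. The Schwann cell list ran from 52.5 to 85.0 FPKM and was highest in white skin replicate 4. Of its 6 matched transcripts, only 1, that of S100B, was highest there (25.8 FPKM, against 4.57 to 14.6 FPKM elsewhere).

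The 3 libraries with the higher levels of the muscle transcripts also had higher levels of many other transcripts. Of the 154 transcripts that had at least 5 FPKM in white skin replicate 4 and at least 10 times the highest of the 3 low libraries, 93 (60.4%) kept the order of CKM and 61 did not. In 43 of the 61, dark skin replicate 3 was above white skin replicate 4. Those with a symbol, looked at after their values were seen, included the hair keratins KRT35, KRT74 and KRT82 and S100A3, a calcium-binding protein of the hair cuticle. KRT35 (XM_005693810.1) was at 96.4, 74.8, 128, 0.945, 1.18 and 7.74 FPKM. White skin replicate 6 was the highest of the 3 low libraries in 35 of these 43 transcripts, against 18 of the 93 muscle transcripts. Over all mRNA transcripts that averaged 0.1 FPKM or more, this share was 36.3%. Whether these 43 transcripts relate to the muscle group was not tested.

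**Figure D5:**
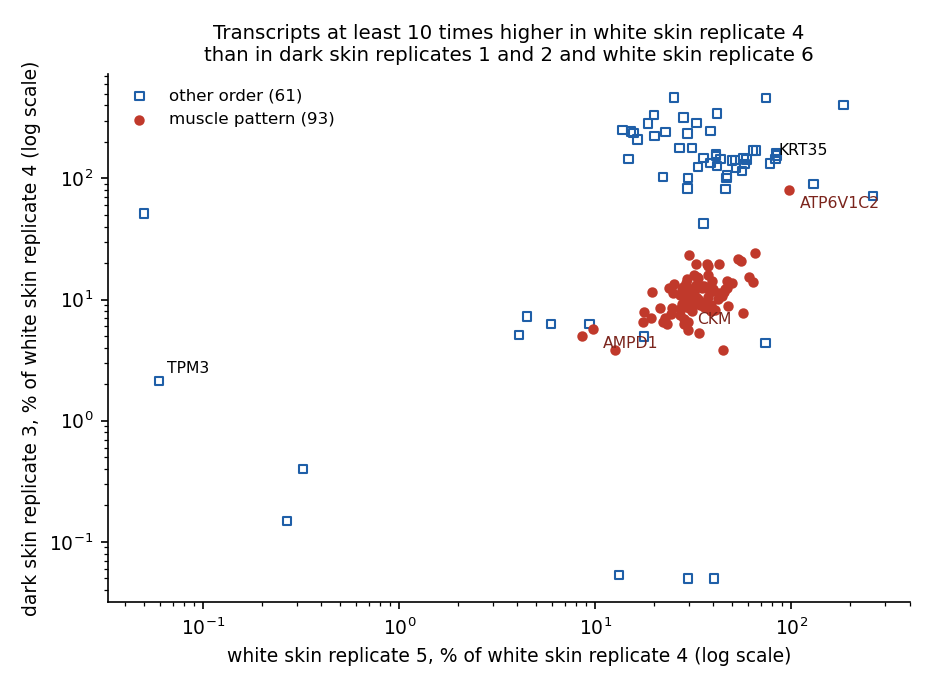
Level in white skin replicate 5 (horizontal axis) and in dark skin replicate 3 (vertical axis) as a percentage of white skin replicate 4, on log axes with values under 0.05% drawn at 0.05%, for the 154 transcripts at least 10 times higher in white skin replicate 4 than in the 3 low libraries (red circles for the 93 of the muscle group, blue squares for the 61 others). The muscle group lies around 32.6% and 10.6%, 43 of the 61 others lie above 100% in dark skin replicate 3, and ATP6V1C2 lies next to the latter.

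Between the breeds, the level of CKM was 8.69 ± 10.1 FPKM (SD, n = 3) in dark skin and 98.2 ± 115 FPKM (SD, n = 3) in white skin, and that of MYL1 (XM_005676485.1) was 12.7 ± 14 and 126 ± 137 FPKM. The SD exceeded the mean in each breed for both transcripts. On the log2(FPKM + 0.1) scale, white skin was higher by 2.60 for CKM (standard error 1.65) and by 2.29 for MYL1 (standard error 1.72). All 93 transcripts were higher on average in white skin, with a median difference of 2.09 on the same scale, against 0.0052 over all transcripts tested. The order set by the rule leads to this direction in nearly all cases. With limma over all mRNA transcripts and Benjamini-Hochberg adjustment, 0 of the 93 had an adjusted p under 0.05, against 0.00866% of all transcripts tested, and 2 had an unadjusted p under 0.05 with a higher level in white skin, against 3.8% of all.

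Every white library lay above every dark library in 7.06% of all transcripts tested and in 0 of the 93, since the rule puts dark skin replicate 3 above white skin replicate 6. Single libraries decided the size of the difference. Without white skin replicate 4 the median difference was 0.94, and 90 of 93 transcripts remained higher in white skin. Without white skin replicate 6 it was 3.69, in libraries that the rule itself sets apart.

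In the lncRNA table, which the rule did not use, 3 of 1336 transcripts met the same conditions. They were 0.225% of all lncRNAs, against 0.333% of all mRNA transcripts, and 3.45% of the 87 lncRNAs with at least 5 FPKM in white skin replicate 4, against 0.836% of the 11120 mRNA transcripts past the same floor. With a floor of 1 FPKM the shares past it were 0.606% and 0.726%, so which of them was higher depended on the floor. TCONS_00053729, an intergenic lncRNA on chromosome 15, was at 33.6, 10.9, 4.62, 0, 0 and 2.02 FPKM. TCONS_00126274, an intronic lncRNA on chromosome 24, was at 6.07, 2.55, 0.853, 0.179, 0.267 and 0.0907 FPKM. TCONS_00141114, an intergenic lncRNA on chromosome 27, was at 5.18, 1.57, 0.838, 0.417, 0 and 0 FPKM. Their steps from white skin replicate 4 to 5 were 3.07, 2.38 and 3.29 times, within the range of the muscle mRNAs. With the floor lowered to 0.5 FPKM, TCONS_00024683 on chromosome 11 and TCONS_00047966 on chromosome 14 were added, with 2.27 and 0.746 FPKM in white skin replicate 4 and 0 in the 3 low libraries.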

How the data were processed

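Ribosomal RNA was depleted from total RNA of fetal skin, and strand-specific libraries were sequenced. The authors aligned clean reads with TopHat2 2.0.9 (Bowtie2 2.0.6) to the goat genome, assembled transcripts with Scripture and Cufflinks 2.1.1, and deposited FPKM values for each library, calculated with Cuffdiff 2.1.1 (the submitters' notes also list 2.2.2). The library normalization within Cuffdiff is not given in the sources used here. FPKM are normalized for length and library size, and the deposited tables hold no counts, so the reads behind a value are unknown and no counting error is given. In the lncRNA table, a column of the authors' mean FPKM was not used.

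The members and gene lists were chosen with earlier results of these data known. RefSeq accessions were matched, without their version, to symbols of the assembly ARS1.2, and 9497 of 27947 transcripts (34.0%) matched. Named were CKM, MYL1, all members in the muscle lists, the highest members outside them, and those at the extremes of each ratio and threshold. A few listed transcripts are counted but not reported singly here. limma 3.58.1 (R 4.3.3, lmFit and eBayes with trend) compared dark and white skin (3 libraries each) on log2(FPKM + 0.1) for the 23090 transcripts averaging 0.1 FPKM or more. The pseudocount makes differences of low transcripts look smaller than they are. Scripts for the rule and for limma were tested on simulated data. Python 3.11.15 (numpy 2.4.6, pandas 2.3.3) served for the rest. Alternatives were other pseudocounts, filters, scalings, thresholds of the rule, and each library left out in turn. The study describes 3 ewes of each breed whose fetuses were sampled, and the labels do not tie a library to a fetus.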

Additional observations from a re-analysis of the deposited data

How the results depend on the processing

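The number of transcripts with the muscle pattern was 93 and stayed within 1.5 times of this under other floors, ratios and scalings (65 to 123), and the scaling to equal medians kept all 93. With the conditions on 1 library left out it ranged from 46 to 151, the former without white skin replicate 4 (36 of the 46 were among the 93) and the latter without dark skin replicate 3 (all 93 were among the 151). The median ratios of 3.06 and 3.20 ranged from 2.68 to 3.09 and from 2.25 to 3.32. The number of lncRNAs was 3, and 5 with a floor of 0.5 FPKM. Between the breeds, limma gave 2 mRNA transcripts with an adjusted p under 0.05, 26 without a filter, 1 with a mean FPKM of at least 1 and 28 without the trend, and between 1 and 7 with 1 library left out (1 without dark skin replicate 2, 4 without dark skin replicate 3, 1 when white skin replicate 6 was left out and 7 when replicate 5 was). Of the 93 transcripts, 0 had an adjusted p under 0.05 in limma under any of these settings (2 had an unadjusted p under 0.05 in the fit as reported, 0 to 6 under the other settings, and 91 without white skin replicate 6, where 8.56% of all transcripts tested had one and the rule itself sets the remaining libraries apart). CKM and MYL1 kept their direction in all of them, with differences of 1.23 to 4.44 and 0.94 to 4.28. No paired analysis was made, since the study describes fetuses from 3 ewes of each breed and names no pairing between the breeds. Levels near 0 are estimates whose depth is unknown, which limits the ratios to the low libraries.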
